A study of Mus musculus with 32 samples.

Results

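The genes described here are 10 repressors that keep endogenous retroviruses and heterochromatin silent: Trim28, Setdb1, Atf7ip, Mphosph8, Morc3, Ehmt2, Suv39h1, Suv39h2, Cbx5 and Kdm1a. They were taken by name from a table of 21829 mouse genes, and all 10 were found in it. Polyadenylated RNA of EL08-1D2 cells, a mouse mesenchymal stromal line known to derive from embryonic liver, was counted in 16 libraries with azacitidine and 16 libraries without azacitidine, so that n = 16 per group holds for every mean of a group below. Azacitidine, a nucleoside drug for myelodysplastic syndromes, is built into nucleic acids and depletes the DNA methyltransferases. All libraries share this line and no other treatment is labelled. The labels used here give neither dose nor duration and do not say that libraries came from separate cultures, so p-values speak only of the spread between these libraries, which may be technical. Values are counts of unique molecular identifiers (UMIs), which count each cDNA molecule once, or CPM, UMI counts scaled to a common library size.

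Endogenous retroviruses are remnants of past infections, and somatic cells silence them by DNA methylation and by methylation of lysine 9 on histone H3 (H3K9). TRIM28 is brought to these elements by KRAB zinc finger proteins and recruits SETDB1, the HUSH complex spreads the mark with SETDB1, SUV39H1 and SUV39H2 write it in pericentromeric heterochromatin, and HP1 proteins read it. When silencing fails, retroviral RNA can form double strands and start an interferon response, called viral mimicry, which is also known to follow loss of DNA methylation. The comparison asks whether the transcripts of the silencers themselves were lower with azacitidine.

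The libraries held between 1226861 and 5039721 UMIs with azacitidine and between 818619 and 3210801 UMIs without it. On the main axis of variation over the tested genes (28.96% of the variance) the libraries with azacitidine numbered 1, 2 and 4 and those without azacitidine numbered 1 and 2 lay apart from the rest, and libraries whose numbers fell in the same run of 4 resembled each other. The mean correlation of deviations from the group mean was 0.34 within and -0.16 between runs with azacitidine, and 0.08 and -0.10 without azacitidine. The labels do not say what the runs are, so values within runs are given where they differ. Of 12 stromal markers 11 passed the filter on counts, and edgeR called 5 of the 11. The collagen genes Col1a1 (log2 fold change -0.37), Col1a2 (-0.39) and Col3a1 (-0.65) were lower with azacitidine, and Cd44 (0.42) and Vcam1 (0.20) were higher, while under spike-in scaling only 1 gene of all those tested was called as lower. The marker below the filter was Thy1, which had 26 UMIs in all libraries with azacitidine and 0 in those without. The 7 haematopoietic markers summed to between 16.3 and 29.4 CPM with azacitidine and to between 5.36 and 15.4 CPM without azacitidine. Cd68 and Hba-a1 made up most of them. Cd68, the only one that passed the filter, was called as higher (log2 fold change 0.99, edgeR, adjusted p = 3.0e-05). Csf1r had 45 UMIs with azacitidine and 26 without azacitidine. Ptprc, Adgre1 and Spi1 had 4, 1 and 1 UMIs with azacitidine, and 1, 0 and 0 without azacitidine, and Hbb-bs had 0 in both groups. The part of these markers in the results was not tested.

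Of the 10 silencers 9 passed the filter on counts, and none of the 9 was called as changed by azacitidine (quasi-likelihood test of edgeR, threshold 0.05 after Benjamini-Hochberg adjustment), against 5.65% of all 9344 tested genes. Their adjusted p-values ran from 0.17 to 0.99. DESeq2 and limma-voom also called 0 of the 9, and 2 of them, Atf7ip and Cbx5, had an unadjusted p under 0.05 in edgeR, as had 17.1% of all tested genes. The 95% intervals of the 9 fold changes lay between 0.713-fold and 1.35-fold. The median log2 fold change was -0.05 over the 9 genes and 0.00 over all tested genes. The median absolute log2 fold change was 0.10 over the 9 genes and 0.09 over all tested genes. When libraries were scaled by their spike-in RNA instead, the median of all genes moved to 0.31 and the 6 negative values of the 9 turned positive, still with 0 called. The SE of each of the 9 genes grew under this scaling, for example from 0.07 to 0.20 for Setdb1 and from 0.06 to 0.20 for Mphosph8. A call is less likely with such errors. Without the 5 libraries that lay apart the 9 values ran from -0.13 (Kdm1a) to 0.30 (Atf7ip). Again 0 of the 9 were called, with a lowest adjusted p of 0.078 in edgeR. The share of all genes called under spike-in scaling and without these 5 libraries is not given here. Without it the 0 calls of these 2 fits cannot be weighed. An interaction of azacitidine with run was called for 0 of the 9 genes and for 282 genes in all. The remaining gene, Suv39h2, was below the filter. In a wider fit over 11287 genes that averaged 5 UMIs or more over all libraries, an average it reached only through its counts with azacitidine, it was 2.59-fold higher with azacitidine and passed the threshold. In none of the 10 genes did the 16 libraries with azacitidine stand clear of the 16 libraries without it, a separation that 0.289% of tested genes showed.

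**Figure D1:**
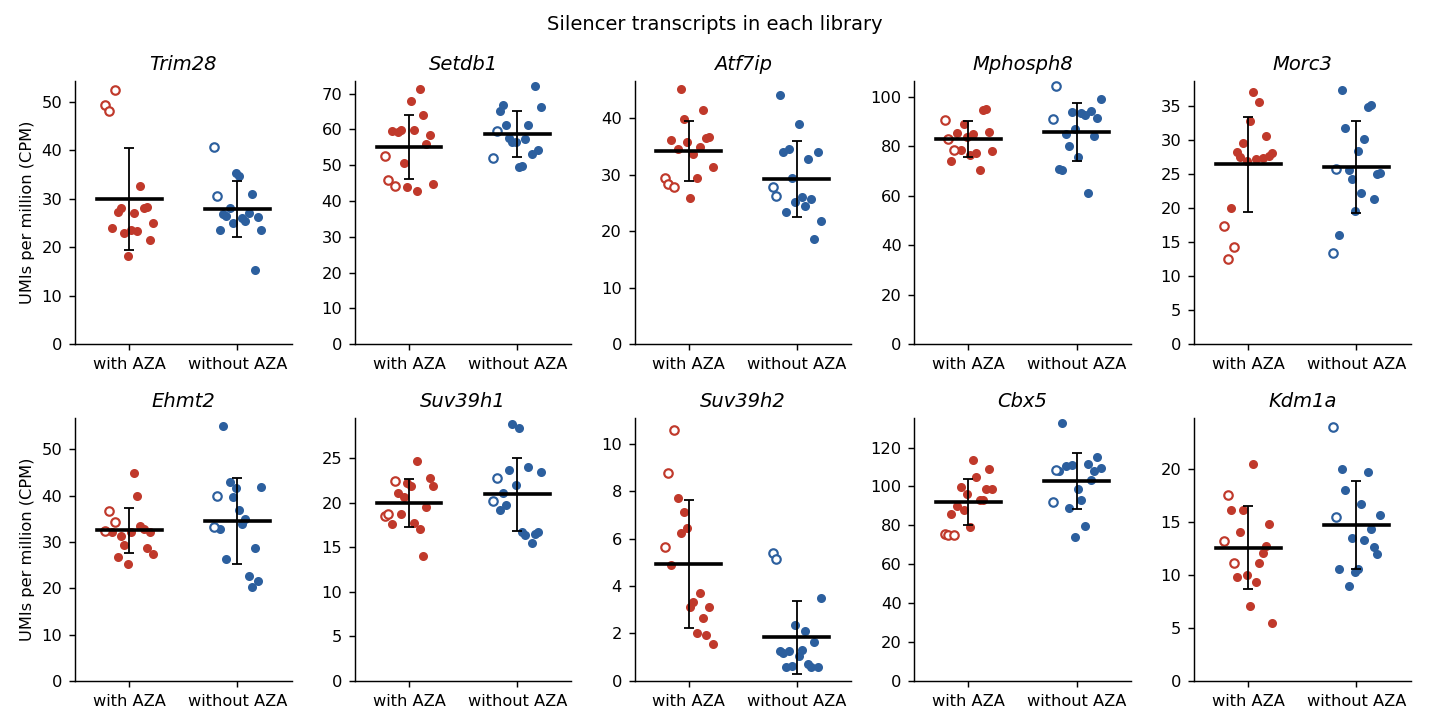
Levels in CPM (linear axes that start at 0) of each of the 10 silencer genes in the 16 libraries with azacitidine (red) and the 16 without (blue). Points are libraries, open points the 5 libraries that lay apart, the wide bar is the mean and whiskers are 1 SD; Suv39h2 lies higher with azacitidine (4.93 against 1.83 CPM), and the groups overlap in all 10 genes.

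**Figure D2:**
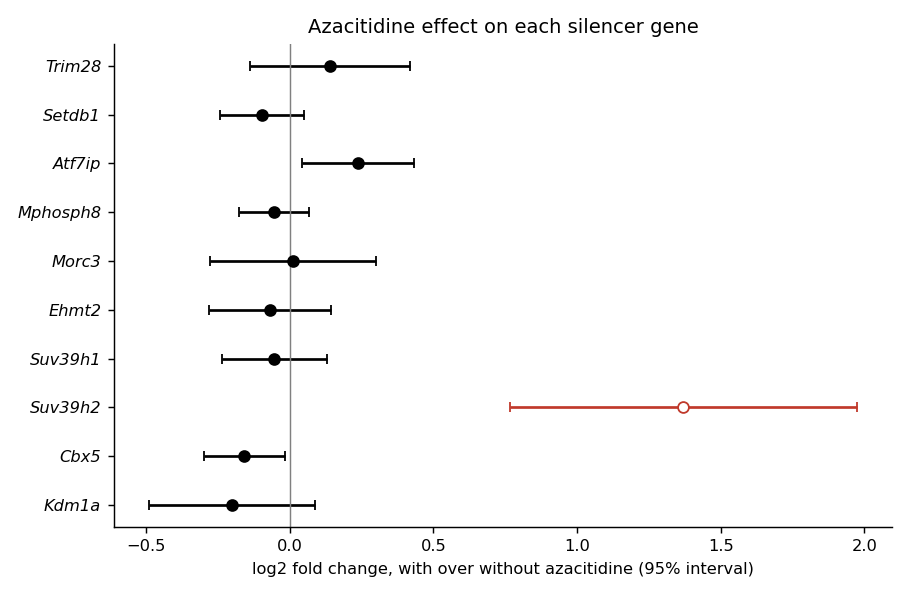
Log2 fold change with over without azacitidine and its 95% interval (edgeR) for each gene. Filled points come from the fit over 9344 genes and the open red point, Suv39h2, from the fit over 11287 genes; only the intervals of Atf7ip, Suv39h2 and Cbx5 exclude 0, before adjustment for the number of genes.

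SUV39H2 is an enzyme that trimethylates H3K9 at pericentromeric repeats, and in adult mice it is best known from the testis. Its gene lies on chromosome 2, 3455815 to 3475031, minus strand (ENSMUSG00000026646, mm10). It had 217 UMIs in the 16 libraries with azacitidine and 56 UMIs in the 16 without. The level was between 1.57 and 10.6 CPM with a median of 4.30 CPM with azacitidine, and between 0.596 and 5.38 CPM with a median of 1.26 CPM without azacitidine. All 16 libraries with azacitidine lay above the median of those without, and 7 of them lay above every library without. The highest values without azacitidine, 5.38 and 5.15 CPM, were those of libraries 1 and 2, which lay apart. The other 14 libraries without azacitidine reached at most 3.48 CPM, a level that 9 libraries with azacitidine exceeded. Those 9 still include numbers 1, 2 and 4 with azacitidine, which also lay apart (5.67, 8.75 and 10.6 CPM). Setting libraries aside in 1 group only makes the groups look further apart. Suv39h2 averaged 4.93 ± 2.69 CPM with azacitidine and 1.83 ± 1.55 CPM without azacitidine (SD), a log2 fold change of 1.37 (SE 0.30, edgeR, adjusted p = 0.0020), in a fit that called 5.68% of its genes, 3.87% as higher and 1.81% as lower. Its 95% interval ran from 1.70-fold to 3.93-fold. The libraries with azacitidine carried Suv39h2 into this fit, since its 56 UMIs in the 16 libraries without azacitidine average below 5. With no filter on counts, over 21822 genes, the log2 fold change was 1.39 (edgeR, adjusted p = 0.0011).

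Within the runs of replicate numbers Suv39h2 passed the threshold only in numbers 5 to 8. The log2 fold change was 0.95 (SE 0.31) in numbers 1 to 4, 2.52 (SE 0.48) in 5 to 8, 1.11 (SE 0.57) in 9 to 12 and 0.72 (SE 0.58) in 13 to 16. The adjusted p in edgeR was 0.054, 0.00032, 0.58 and 0.74 in the same order. Runs also differed in how many genes were called. The fits by run that did not hold Suv39h2 called 780, 480, 108 and 253 genes, again in this order. Numbers 9 to 12 held 18 UMIs with azacitidine and 9 without azacitidine, and numbers 13 to 16 held 17 and 9. Only in numbers 5 to 8 did the groups not overlap. There the 4 libraries with azacitidine held 68 UMIs and the 4 without held 7 UMIs. Groups of 4 separate more easily than groups of 16, and the share of all genes that separated in this run is not given here. An interaction of run and azacitidine was not called (edgeR, adjusted p = 0.43). Without the 5 libraries that lay apart the log2 fold change was 1.70 (SE 0.30, edgeR, adjusted p = 7.1e-05). With every library thinned to 818619 UMIs, where 71 UMIs were left with azacitidine and 29 without, it was 1.23 (SE 0.39), and Suv39h2 was not called (edgeR, adjusted p = 0.074). On the opposite strand Dclre1c, an endonuclease gene of DNA repair, overlaps Suv39h2 over 8316 bases, 357 of them exonic in both, and the labels do not say whether strand was kept. Dclre1c had 212 UMIs with azacitidine and 119 UMIs without azacitidine. Its log2 fold change was 0.32 (SE 0.17, edgeR, adjusted p = 0.35).

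The start of Suv39h2 is rich in CG dinucleotides, the sites that DNA methyltransferases modify, and is shown beside that of its paralogue Suv39h1, which was not called. The stretches (RefSeq, GRCm38.p6, minus strand, 5′ to 3′, up to the first annotated exon) are chr2:3475032-3475236 for Suv39h2 and chrX:8074761-8075010 for Suv39h1, and capitals mark CG.
Suv39h2: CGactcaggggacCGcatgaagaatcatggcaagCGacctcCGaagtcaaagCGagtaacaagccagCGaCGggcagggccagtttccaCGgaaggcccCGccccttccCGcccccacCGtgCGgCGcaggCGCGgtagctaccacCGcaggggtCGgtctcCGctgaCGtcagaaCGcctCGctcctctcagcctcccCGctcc
Suv39h1: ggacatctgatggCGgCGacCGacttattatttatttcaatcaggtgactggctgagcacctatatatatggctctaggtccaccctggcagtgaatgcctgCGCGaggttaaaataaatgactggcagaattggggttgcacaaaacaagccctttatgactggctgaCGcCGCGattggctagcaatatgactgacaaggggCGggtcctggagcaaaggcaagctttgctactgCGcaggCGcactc
The printed stretches held 22 CG in 205 bases of Suv39h2 and 11 CG in 250 bases of Suv39h1. In the 250 bases before the RefSeq start, Suv39h2 had 27 CG. That was more than in 91.4% of 32851 such windows in the mouse genome, whose median was 6. For Suv39h2 this window runs past the printed stretch into an annotated exon of the gene itself, because the RefSeq start used lies inside that exon. Suv39h1 had 11, and the other 8 silencers, none of them called in the main fit, had between 13 and 22. Suv39h1, Ehmt2 and Cbx5 have 2 annotated starts each, and only the most upstream was used, here and in the printed stretch of Suv39h1. The germline genes named below that were higher with azacitidine, Rhox5, Sohlh2 and Asz1, had 4, 14 and 15. Tex19.1 and Dazl, germline genes below the filter, had 15 and 20. Their UMIs were 199 and 72 with azacitidine, and 4 and 1 without azacitidine. A search on both strands for a CRE (TGACGTCA, the site named for CREB proteins), an E-box (CACGTG) and an E2F-type site (TTCCCGCC) found a CRE and an E2F-type match before Suv39h2, the CRE from base 166 of the printed stretch. Of all windows 1.55% held the CRE, 1.86% the E2F-type site and 6.02% the E-box. Among the other silencers Trim28 held the E2F-type site, Ehmt2 and Cbx5 held the E-box, and no other match was found. Methylation itself was not measured, and a link between the number of CG and the response was not tested.

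The TRIM28 and SETDB1 axis was not called. Trim28, the corepressor that KRAB zinc finger proteins bring to retroviral DNA (chromosome 7, 12999114 to 13031035), stood between 18.1 and 52.4 CPM with a median of 27.2 CPM with azacitidine, and between 15.4 and 40.7 CPM with a median of 26.7 CPM without azacitidine. The 3 libraries with azacitidine that lay apart had 49.3, 48.0 and 52.4 CPM and were the 3 that exceeded every library without the drug. Its log2 fold change was 0.14 (SE 0.14, edgeR, adjusted p = 0.67), with 0.50 in numbers 1 to 4 and -0.24, -0.05 and 0.09 in the other runs. Without the 5 libraries that lay apart it was -0.07 (edgeR, adjusted p = 0.79). Setdb1, whose enzyme TRIM28 recruits to trimethylate H3K9 (chromosome 3, 95323525 to 95357202), stood between 42.7 and 71.3 CPM with a median of 57.3 CPM with azacitidine, and between 49.4 and 72.0 CPM with a median of 57.4 CPM without azacitidine. The groups overlapped, although 5 libraries with azacitidine lay below every library without it. The difference was -0.10 on the log2 scale (SE 0.07, edgeR, adjusted p = 0.55), with -0.26, -0.12, 0.14 and -0.13 in the 4 runs. On the opposite strand Zbtb45 overlaps Trim28 and Cers2 overlaps Setdb1. The exonic bases they share were not counted, and only reads from such bases could not be told apart if strand was not kept. Zbtb45 had 1597 UMIs and Cers2 27543 UMIs over all libraries.

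Atf7ip, which encodes the partner that stabilises SETDB1 in the nucleus (chromosome 6, 136506167 to 136610862), had the lowest adjusted p of the 9 genes. It stood between 25.8 and 45.2 CPM with a median of 34.7 CPM with azacitidine, and between 18.7 and 44.1 CPM with a median of 27.0 CPM without azacitidine. Of the 16 libraries with azacitidine 15 lay above the median of those without. Its log2 fold change was 0.24 (SE 0.10, edgeR, adjusted p = 0.17). This value was -0.10 in numbers 1 to 4 and 0.47, 0.08 and 0.54 in the other runs. Without numbers 1 to 4 Atf7ip was called as higher, at 0.38 (SE 0.10, edgeR, adjusted p = 0.018). The share of the 9162 genes of that fit that were called is not given here, so this call cannot be set beside it. Among 9 tested cofactors of TRIM28, namely related proteins, SUMO factors and KRAB zinc finger genes, 0 passed edgeR's threshold and 0 had an unadjusted p below 0.05, and their median log2 fold change was -0.07. The lowest p belonged to Sumo3, a SUMO protein, at 0.09 (SE 0.07, edgeR, adjusted p = 0.55), and Pias4, a SUMO ligase, at -0.09 (SE 0.08, edgeR, adjusted p = 0.64).

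Transcripts of the HUSH complex were not called either. Mphosph8, whose protein MPP8 binds methylated H3K9 for HUSH (chromosome 14, 56668248 to 56697430), had the smallest spread of fold changes between runs among the 9 genes. It stood between 70.5 and 95.03 CPM with a median of 83.4 CPM with azacitidine, and between 61.2 and 104.3 CPM with a median of 89.2 CPM without azacitidine. With the groups overlapping, the log2 fold change was -0.05 (SE 0.06, edgeR, adjusted p = 0.72), between -0.08 and -0.03 in the 4 runs, and its 95% interval of 0.885-fold to 1.05-fold was the narrowest of the 9. Morc3, an ATPase that silences retroviruses in mouse embryonic stem cells (chromosome 16, 93832121 to 93876073), stood between 12.5 and 37.1 CPM with a median of 27.6 CPM with azacitidine, and between 13.4 and 37.5 CPM with a median of 25.4 CPM without azacitidine. Both groups covered nearly the same range. Its log2 fold change was 0.01 (SE 0.14, edgeR, adjusted p = 0.99), with -0.42 in numbers 1 to 4 and 0.09 to 0.23 in the other runs. Of 3 tested HUSH, MORC and SETDB1 partners 0 were called by edgeR and 0 had an unadjusted p below 0.05. Resf1, a SETDB1 partner, had 0.19 (SE 0.15, edgeR, adjusted p = 0.57) and Morc2a, the HUSH-associated ATPase, 0.08 (SE 0.19, edgeR, adjusted p = 0.90). Tasor, the scaffold of HUSH, was below the filter. It had 129 UMIs with azacitidine and 99 UMIs without azacitidine. In the fit over 11287 genes its log2 fold change was -0.07 (SE 0.24, edgeR, adjusted p = 0.94).

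The other H3K9 methyltransferases among the silencers, Ehmt2 and Suv39h1, were not called. Ehmt2 encodes G9a, which writes mono- and dimethylation (chromosome 17, 34898469 to 34914052). It stood between 25.2 and 44.8 CPM with a median of 32.2 CPM with azacitidine, and between 20.3 and 55.1 CPM with a median of 34.4 CPM without azacitidine. Every library with azacitidine lay within the range of those without, and the log2 fold change was -0.07 (SE 0.10, edgeR, adjusted p = 0.81), with -0.18, -0.40, 0.24 and 0.16 in the 4 runs. Suv39h1, the X-linked paralogue of Suv39h2 (chromosome X, 8061171 to 8074760), stood between 14.0 and 24.7 CPM with a median of 20.1 CPM with azacitidine, and between 15.5 and 28.8 CPM with a median of 20.6 CPM without azacitidine. The libraries overlapped widely, and the log2 fold change was -0.05 (SE 0.09, edgeR, adjusted p = 0.89), with -0.10, -0.19, 0.00 and 0.16 in the 4 runs. Of 5 tested partners and further H3K9 methyltransferases 1 fell and 0 rose. The gene that fell was Mecom, a zinc finger protein of the PRDM family that is best known as a transcription factor of haematopoietic stem cells and has also been assigned H3K9 methyltransferase activity. It averaged 19.4 ± 5.70 CPM with azacitidine and 29.1 ± 5.61 CPM without azacitidine (SD), and 10 of the 16 libraries with azacitidine lay below every library without it. For Mecom the log2 fold change was -0.60 (SE 0.12, edgeR, adjusted p = 0.0014), in a fit that called 2.00% of genes as lower, and -0.26 (edgeR, adjusted p = 0.34) when libraries were scaled by their spike-in RNA. Zfp644, a G9a partner, followed at -0.19 (SE 0.09, edgeR, adjusted p = 0.23).

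HP1 proteins read methylated H3K9 and compact the chromatin. Cbx5 encodes HP1 alpha (chromosome 15, 103191544 to 103239816) and had the most UMIs of the 10 genes, 3336 with azacitidine and 2706 without azacitidine. It stood between 75.0 and 113 CPM with a median of 92.8 CPM with azacitidine, and between 73.9 and 132 CPM with a median of 107.9 CPM without azacitidine. Of the libraries with azacitidine 14 of 16 lay below the median of those without. Its log2 fold change was -0.16 (SE 0.07, edgeR, adjusted p = 0.22). In numbers 1 to 4, where 780 genes were called in all, it was -0.48 (SE 0.11, edgeR, adjusted p = 0.0046). In the other runs, with 480, 108 and 253 genes called, it was -0.05, 0.05 and -0.12. The interaction with run had an adjusted p of 0.20 in edgeR. Without the 5 libraries that lay apart the value was -0.09. Cbx1, which encodes HP1 beta, had -0.25 (SE 0.09, edgeR, adjusted p = 0.13), and passed the threshold with a term for the runs in the fit, at -0.24 (edgeR, adjusted p = 0.038). Cbx3, which encodes HP1 gamma and was below the filter, had 101 UMIs with azacitidine and 112 UMIs without azacitidine. In the fit over 11287 genes its log2 fold change was -0.63 (SE 0.20, edgeR, adjusted p = 0.0502). Scaling by spike-in RNA turned the sign of Cbx5 and Cbx1, to 0.17 and 0.07. Of 14 tested HP1 genes, histone chaperones and heterochromatin remodellers 0 passed edgeR's threshold and 2 had an unadjusted p below 0.05. These were Cbx1 and Daxx, a chaperone of histone H3.3, at 0.18 (SE 0.07, edgeR, adjusted p = 0.16). Over all 32 libraries, after removal of group means, the tested genes most correlated with Cbx5 were Myh9, Pik3r1 and Smarcc2 (Pearson r of log2 CPM, 0.75, 0.74 and 0.72), values that share the runs and the libraries that lay apart. Among the silencers themselves r ran from -0.52 for Trim28 and Cbx5 to 0.53 for Morc3 and Cbx5 over the same libraries.

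Kdm1a encodes LSD1, a demethylase of H3K4 that silences retroviruses in mouse embryonic stem cells (chromosome 4, 136550540 to 136602723). It stood between 5.48 and 20.5 CPM with a median of 12.3 CPM with azacitidine, and between 8.97 and 23.9 CPM with a median of 13.9 CPM without azacitidine. Its log2 fold change was -0.20 (SE 0.14, edgeR, adjusted p = 0.52), and its interval, from 0.713-fold to 1.06-fold, reached lowest of the 9. Within runs it was -0.31, 0.03, -0.30 and -0.20. Luzp1, with 3389 UMIs over all libraries, overlaps Kdm1a on the opposite strand. Of 9 tested CoREST and deacetylase partners 0 passed edgeR's threshold and 2 had an unadjusted p below 0.05. Phf21a, the CoREST subunit that reads unmodified H3K4, had -0.27 (SE 0.09, edgeR, adjusted p = 0.093) and Rcor2, a CoREST scaffold, -0.34 (SE 0.16, edgeR, adjusted p = 0.24). H3K9 demethylases oppose the silencers. Of 7 tested ones 0 were called by edgeR and 0 had an unadjusted p below 0.05, at a median log2 fold change of -0.21. The lowest p belonged to Kdm3b at -0.31 (SE 0.16, edgeR, adjusted p = 0.31) and Kdm4c at -0.28 (SE 0.15, edgeR, adjusted p = 0.36). DESeq2, limma-voom and edgeR each called 1 of the 47 tested partner genes in all, and that gene was Mecom. Over all 9344 tested genes edgeR called 5.65%, and DESeq2 called 565 genes and limma-voom 554.

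Levels of different genes were set side by side per length of transcript. Per kilobase of merged exons, with azacitidine Mphosph8 had the highest level, 23.1 ± 2.00 CPM per kilobase, followed by Cbx5 at 10.2 ± 1.33, Setdb1 at 8.03 ± 1.32 and Trim28 at 7.21 ± 2.52 (SD). Without azacitidine they had 24.0 ± 3.25, 11.4 ± 1.61, 8.56 ± 0.944 and 6.70 ± 1.39. Setdb1 and Trim28 are neighbours in this order that do not differ beyond their spread with azacitidine. Suv39h2 was lowest in both groups, with 1.12 ± 0.609 CPM per kilobase with azacitidine and 0.416 ± 0.351 CPM per kilobase without azacitidine. Its neighbour Atf7ip, at 1.65 ± 0.257 CPM per kilobase with azacitidine, did not differ from it there beyond the spread. Where reads tag only an end of the transcript, as in many UMI methods, levels need no division by length. The order per kilobase holds only if reads cover whole transcripts, which the sources used here do not state. Undivided, Suv39h2 was again the lowest in both groups, but Cbx5 and not Mphosph8 was the highest. Atf7ip, at 34.2 CPM with azacitidine, was then no neighbour of Suv39h2 at 4.93 CPM.

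**Figure D3:**
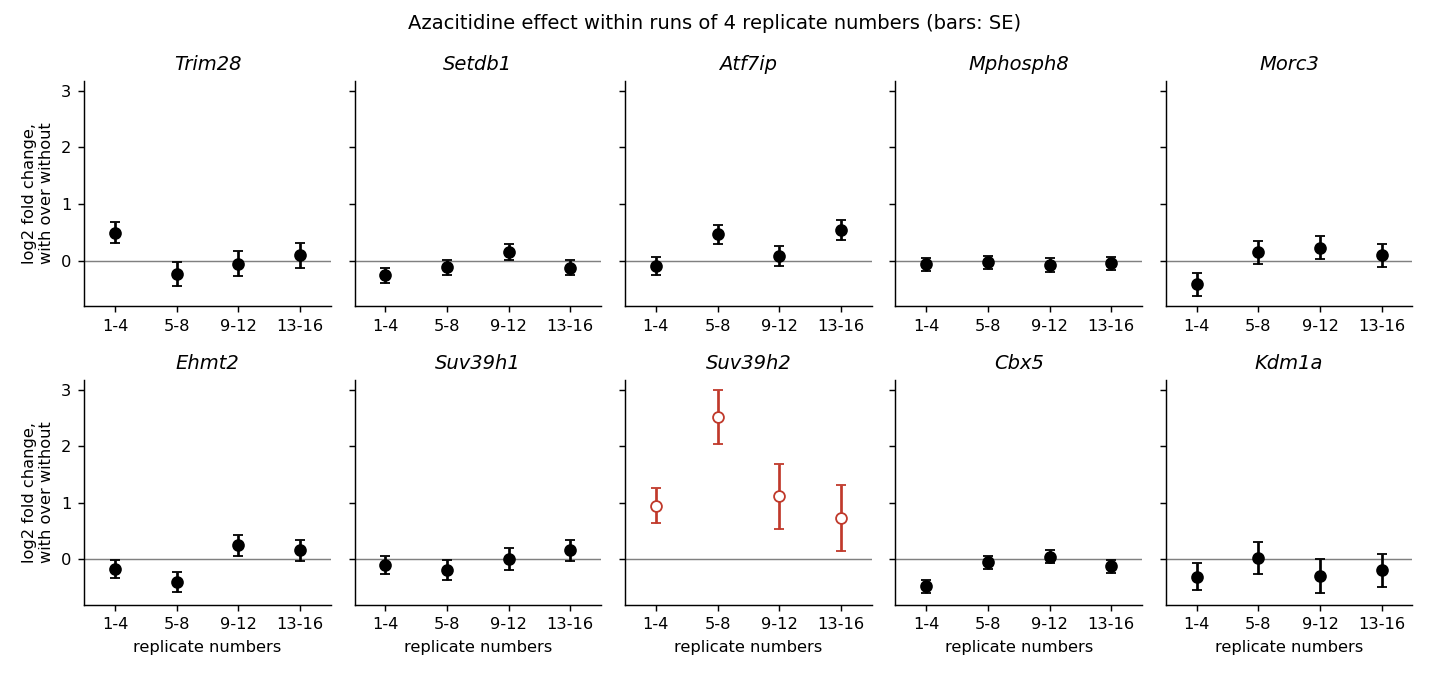
Log2 fold change with over without azacitidine of each silencer within each run of 4 replicate numbers (points, edgeR; bars are 1 SE; replicate numbers on the x axis). Suv39h2 (open red points, fit over 11287 genes) lies between 0.72 and 2.52 in all 4 runs, Mphosph8 stays between -0.08 and -0.03, and Cbx5 lies at -0.48 in numbers 1 to 4.

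The responses known to follow loss of silencing were measured in the same libraries. Of 17 tested genes of the interferon response and of double-stranded RNA sensing 15 rose and 0 fell, where 3.65% of all tested genes rose. Their median log2 fold change was 1.32. Some, such as Bst2 (median 7.81 CPM with azacitidine, 4.27 without) and Ifih1 (10.0 and 4.33), passed the filter through their level with azacitidine. The list was also drawn up with the response known, so this interferon count lends no support. Ifit1, which binds foreign RNA, averaged 148 CPM with azacitidine and 43.3 CPM without azacitidine, with a log2 fold change of 1.80 (SE 0.21, edgeR, adjusted p = 2.7e-07). Ifit3, of the same family, had 1.65 (SE 0.31, edgeR, adjusted p = 0.00046) and Oasl2, an oligoadenylate synthetase-like gene, 1.32 (SE 0.21, edgeR, adjusted p = 3.6e-05). Of 16 germline genes in the table that are known to be freed when such silencers are lost in mouse embryonic stem cells, 2 passed the filter and both rose. Sohlh2, with 0 to 3 UMIs in each library without azacitidine, passed it through its level with azacitidine, so the count lends no support. Rhox5, a homeobox gene of the reproductive tract, had a log2 fold change of 3.98 (SE 0.13, edgeR, adjusted p = 2.7e-24) and Sohlh2, a germ cell transcription factor, 3.81 (SE 0.26, edgeR, adjusted p = 2.9e-14). Asz1, a piRNA pathway gene below the filter, had 204 UMIs with azacitidine and 33 UMIs without azacitidine. Rhox5, Sohlh2 and Asz1 were named for having the most UMIs of the list, a choice that favours genes high with azacitidine. Whether DNA methylation or the silencers had a part in these rises was not tested. Of 16 listed genes linked to MERVL retroviruses only 5 were matched in the table, so most of this list was not measured. The 5 summed to 100 UMIs with azacitidine and 37 UMIs without azacitidine, in libraries of unequal depth. Of these 91 and 34 were those of Usp17la, whose copies are alike enough to share reads, and the other matched genes were near 0. Usp17la, below the filter, averaged 2.34 CPM with azacitidine and 1.27 CPM without azacitidine. In 9 of the 16 libraries with azacitidine it lay above every library without. The interferon and germline responses had been seen in these data before the lists were drawn up.

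**Figure D4:**
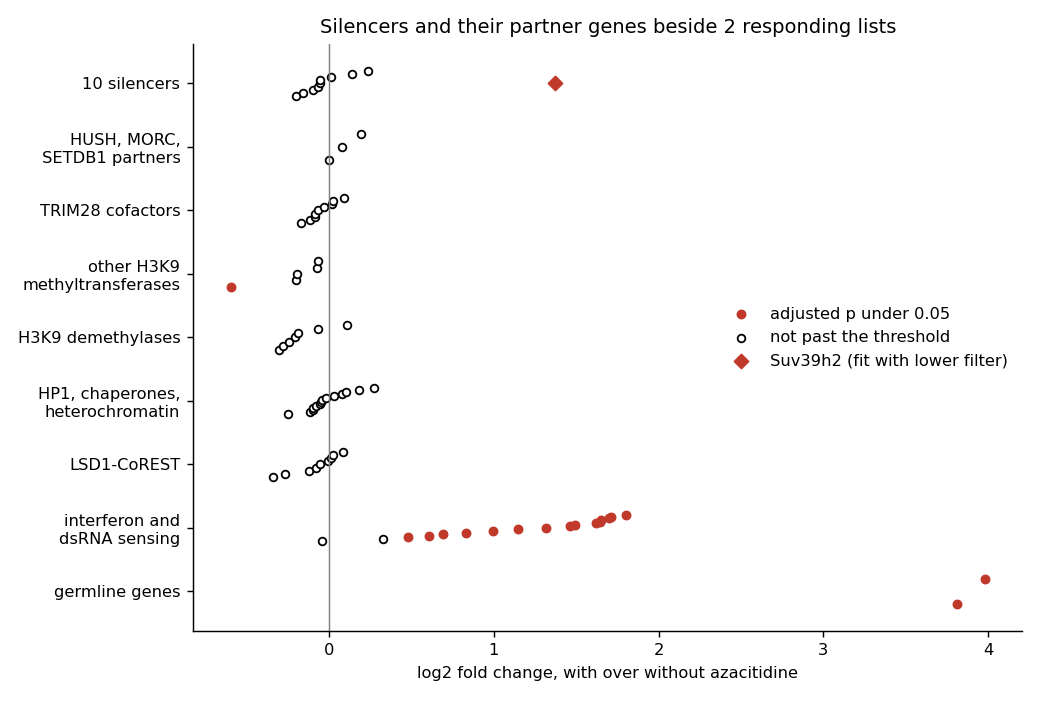
Log2 fold change with over without azacitidine (edgeR) of each tested gene of the silencers, of 6 lists of partner genes and of 2 further lists. Each point is a gene, red where the adjusted p was under 0.05; the diamond is Suv39h2 at 1.37, Mecom at -0.60 is the only partner gene past the threshold, and 15 of 17 interferon genes are past it.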

How the data were processed

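The deposited table holds whole-number counts of UMIs per gene for 32 libraries. Per the labels' protocols cDNA was barcoded, pooled and pre-amplified by a UMI method, and libraries were made with a transposase kit. STAR 2.4.0, bedtools 2.17.0 and the build mm10 appear in the submitters' processing notes. UMI collapsing, annotation and strandedness are not given in the sources used here. Of 21897 lines 68 were ERCC spike-ins, with 0.106% of UMIs, which stayed out of library sizes and tests. Symbols and positions come from GENCODE M21 (21506 of 21829 genes named), and promoters of all 10 genes from RefSeq.

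EdgeR 4.0.16 (quasi-likelihood, robust, two-sided, TMM, default expression filter by group) compared 16 with 16 libraries over 9344 genes, with Benjamini-Hochberg adjustment and a threshold of 0.05. Standard errors come from the fold change and its F statistic, and intervals are 95%. Suv39h2 was tested in a fit over 11287 genes that averaged 5 UMIs or more over all libraries. DESeq2 1.42.0 and limma 3.58.1 (voom) were alternatives, run in R 4.3.3, and figures were drawn with matplotlib 3.10.9. The fit was tested on simulated counts with known changes.

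The 10 genes, the partner lists and the alternatives were chosen with earlier results of these data known. In the text stand all 10 genes, the 2 partner genes of lowest p in each list and every called one, and the 3 interferon and germline genes with most UMIs. Tasor, Cbx3, Dclre1c, Usp17la, Bst2, Ifih1, Tex19.1, Dazl and single markers were named after their values were seen.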

Additional observations from a re-analysis of the deposited data

How the results depend on the processing

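Of the 16 pairs of libraries with the same number 12 had deviations correlated above 0.1 (median 0.18) and 3 matched best with their own number, so the numbers were not taken as pairs. With the number as a replicate block 897 genes were called in place of 528, 518 higher and 379 lower, with 2 partner genes (Mecom and Cbx1) and 0 silencers. With a term for the runs 993 were called, 563 higher and 430 lower, with the same 2 partner genes. Spike-in scaling left 1 lower gene, 0 partner genes and positive values of Setdb1 (0.20), Mphosph8 (0.27), Ehmt2 (0.21), Suv39h1 (0.25), Cbx5 (0.17) and Kdm1a (0.12). Thinning to the lowest total left 260 calls, 168 higher and 92 lower, and turned Trim28 to -0.052 and Ehmt2 to 0.044. Trim28 was also negative without numbers 1 to 4 (-0.074) and without the 5 libraries that lay apart (-0.068), and Morc3 in limma-voom (-0.038). The cause was not tested. With no filter 860 genes were called, 718 higher, and 1 silencer, Suv39h2, which was also the 1 silencer called in the fit over 11287 genes and in sums over runs, where 86 genes were lower. Without numbers 1 to 4 the 1 silencer called was Atf7ip. How many genes were called in all in that fit and in the sums over runs is not given here.

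Leaving out each library in turn gave 471 to 568 calls (312 to 371 higher, 149 to 197 lower), 0 silencers in each fit, and 1 partner gene or, without number 12 with azacitidine, 2. Morc3 ran from -0.047 to 0.071. Suv39h2, in alternatives chosen after seeing the data, ran from 1.24 to 1.65 with each library left out and from 1.23 to 1.73 in the others, and lost its call in 1, the thinned counts. With the replicate block it was 1.253 (edgeR, adjusted p = 0.0011). Its 217 UMIs with azacitidine and 56 UMIs without azacitidine limit its precision.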
